A study of Mus musculus with 20 samples.

Results

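The 8 genes described here mark excitatory neurons of the cerebral cortex and the layers they occupy. They are Slc17a7, Neurod6, Cux1, Cux2, Rorb, Fezf2, Tbr1 and Foxp2, and they were taken by name from a list. All 8 were found by symbol among the 57180 gene identifiers of the count table, and all 8 passed the filter on low counts in every comparison.

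RNA was sequenced from tissue punches of 2 mouse brain regions, a midline thalamic nucleus called the paraventricular nucleus (PVT) and a cortical area, the posterior insula (pIC). There were 6 libraries of PVT from STZ mice, 4 of PVT from control mice, 6 of pIC from STZ mice and 4 of pIC from control mice. STZ mice had received 1 intraperitoneal dose of 200 mg/kg streptozotocin, a toxin that destroys the insulin-producing beta cells of the pancreas, and serve as a model of painful diabetic neuropathy, while control mice had received vehicle. All tissue was collected at week 7. The labels name no strain, sex or age for these animals. Nothing in the labels states that each library of a group came from its own mouse, or whether PVT and pIC libraries with the same label share a mouse, so p-values measure the spread between these libraries, which may be technical in part.

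Cortical projection neurons are born in sequence and settle in layers, and each layer sends its axons to different targets. A small set of transcription factors sets and maintains the identity of each layer, and the vesicular glutamate transporter encoded by Slc17a7 is the one most cortical excitatory neurons use to load their synaptic vesicles. Most thalamic neurons instead use the transporter encoded by Slc17a6. Neither Rorb nor Foxp2 is confined to cortex: Rorb is also a gene of thalamic neurons, and Foxp2 is also a gene of striatal projection neurons and of parts of the thalamus.

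The total count of a library was 21703110 to 25345195 in PVT of STZ mice, 17939029 to 24549473 in PVT of control mice, 18969221 to 25533369 in pIC of STZ mice and 21165737 to 23345690 in pIC of control mice. The punches were checked against marker genes. Zic1, a transcription factor of midline thalamus, lay between 152 and 250.4 CPM (counts scaled to a common library size) in the 10 PVT libraries and between 9.22 and 33.5 CPM in the 10 pIC libraries. Tcf7l2, a thalamic transcription factor, ranged from 7.15 to 160.0 CPM within PVT of STZ mice and from 10.1 to 69.2 CPM within PVT of control mice. In pIC Tcf7l2 was at most 4.41 CPM in STZ mice and 4.25 CPM in control mice. Slc17a6 ranged from 24.7 to 313.4 CPM in PVT of STZ mice and from 41.0 to 155.2 CPM in PVT of control mice. In pIC Slc17a6 reached 25.2 CPM in STZ mice and 26.8 CPM in control mice, so the regions overlapped in STZ mice. In STZ mice the highest PVT library held 22.4 times the lowest for Tcf7l2, 12.7 times for Slc17a6 and 1.65 times for Zic1. In control mice these values were 6.85, 3.78 and 1.53. Whether thalamic content differed between PVT punches was not tested. The summed level of 14 genes of striatal projection neurons ranged from 323 to 3901 CPM in PVT of STZ mice, 386 to 1660 CPM in PVT of control mice, 425 to 3850 CPM in pIC of STZ mice and 423 to 1482 CPM in pIC of control mice, with no gene of the list at 0 in any of the groups. Replicate 3 of the pIC STZ group stood apart from the other pIC libraries by this sum, and the STZ comparison in pIC is given with and without it below. The summed level of 11 hypothalamic genes ranged from 10.8 to 947.4 CPM in PVT of STZ mice and from 12.5 to 894.3 CPM in PVT of control mice, and was at most 6.86 CPM in pIC of STZ mice and 7.72 CPM in pIC of control mice. In bulk tissue, fewer cells of a type and less RNA for each cell cannot be told apart.

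Slc17a7 (ENSMUSG00000070570, chromosome 7) encodes the cortical vesicular glutamate transporter, and Neurod6 (ENSMUSG00000037984, chromosome 6) encodes a transcription factor of the basic helix-loop-helix family made by differentiating and mature cortical projection neurons. Fezf2 (ENSMUSG00000021743, chromosome 14) directs the subcerebral projection neurons of layer 5, and Tbr1 (ENSMUSG00000035033, chromosome 2) directs the corticothalamic neurons of layer 6. Cux2 (ENSMUSG00000042589, chromosome 5) is a homeodomain factor of the upper layers. The promoter windows of these genes are shown because 4 of them, Slc17a7, Tbr1, Fezf2 and Neurod6, varied together between PVT punches, and because the window of the fifth, Cux2, held most of the motifs searched. Each window runs from 250 bases before a RefSeq transcript start to 50 bases after it, on the gene's own strand in GRCm38.p6, and capitals mark matches to 4 motifs searched on both strands: CAGATG (an E-box bound by NEUROD factors), ATCGAT (a CUX site), AGGTCA (a ROR half-site) and GGTGTG (a T-box half-site).
Slc17a7, chr7:45163671-45163970, plus strand: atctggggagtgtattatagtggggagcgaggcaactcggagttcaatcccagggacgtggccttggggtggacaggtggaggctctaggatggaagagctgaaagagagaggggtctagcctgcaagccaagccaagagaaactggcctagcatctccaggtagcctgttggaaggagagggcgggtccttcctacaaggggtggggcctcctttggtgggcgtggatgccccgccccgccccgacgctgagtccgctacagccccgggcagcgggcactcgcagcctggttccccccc
Tbr1, chr2:61804203-61804502, plus strand: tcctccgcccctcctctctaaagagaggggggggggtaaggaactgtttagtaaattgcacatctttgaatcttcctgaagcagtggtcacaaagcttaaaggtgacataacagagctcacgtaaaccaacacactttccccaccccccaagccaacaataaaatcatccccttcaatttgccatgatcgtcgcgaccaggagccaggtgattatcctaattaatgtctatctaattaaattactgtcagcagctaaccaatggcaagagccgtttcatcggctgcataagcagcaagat
Fezf2, chr14:12345816-12346115, minus strand: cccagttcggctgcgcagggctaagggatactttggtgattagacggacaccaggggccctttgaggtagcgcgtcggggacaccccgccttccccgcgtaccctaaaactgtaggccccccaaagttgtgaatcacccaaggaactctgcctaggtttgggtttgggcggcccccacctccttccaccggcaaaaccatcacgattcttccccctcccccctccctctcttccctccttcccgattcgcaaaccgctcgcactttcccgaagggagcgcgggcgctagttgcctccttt
Neurod6, chr6:55681214-55681513, minus strand: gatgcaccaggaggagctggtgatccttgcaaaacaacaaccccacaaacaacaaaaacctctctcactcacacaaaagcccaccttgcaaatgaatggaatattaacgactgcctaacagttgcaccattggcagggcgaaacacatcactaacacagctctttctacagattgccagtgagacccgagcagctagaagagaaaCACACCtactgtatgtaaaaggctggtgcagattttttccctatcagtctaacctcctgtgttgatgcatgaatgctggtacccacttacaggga
Cux2, chr5:122047776-122048075, minus strand: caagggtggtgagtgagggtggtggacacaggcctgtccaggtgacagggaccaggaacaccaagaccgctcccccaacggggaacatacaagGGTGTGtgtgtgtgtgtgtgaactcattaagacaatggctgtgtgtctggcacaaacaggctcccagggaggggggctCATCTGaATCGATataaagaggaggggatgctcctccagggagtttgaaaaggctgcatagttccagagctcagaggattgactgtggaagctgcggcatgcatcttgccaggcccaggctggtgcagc

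The Slc17a7, Tbr1 and Fezf2 windows held none of the 4 motifs. The Neurod6 window held 1 GGTGTG, on the opposite strand at position −45 relative to the transcript start. The Cux2 window held CAGATG on the opposite strand at −79, ATCGAT at −72 and GGTGTG at −157. None of the matches overlapped another. Among the 32851 promoter windows of the mouse table, 17.2% held CAGATG, 0.925% ATCGAT, 16.3% AGGTCA and 19.0% GGTGTG on either strand. GC content was 63.7% in the Slc17a7 window, 61.3% in that of Fezf2, 56.7% in that of Cux2, 46.3% in that of Neurod6 and 46.0% in that of Tbr1, against a median of 52.7% over all windows. In all, 9 windows of 7 genes were matched. Of those not printed, the Cux1 window held 1 GGTGTG at −187, while the second Cux2 window and both Rorb windows held no match. Foxp2 was not matched.

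Within pIC of control mice the genes kept a clear order of level once counts were divided by the merged exon length of each gene. Slc17a7 averaged 274 ± 50.4 CPM per kilobase in pIC of STZ mice and 290 ± 21.1 in pIC of control mice (SD, n = 6 and 4), followed by Neurod6 at 44.2 ± 8.93 and 49.7 ± 4.78, and Tbr1 at 28.3 ± 5.39 and 28.2 ± 1.0. In pIC of control mice Fezf2 came next at 12.1 ± 1.42, then Cux2 at 7.78 ± 0.284, Rorb at 5.26 ± 0.333, Cux1 at 4.31 ± 0.189 and Foxp2 at 0.917 ± 0.214 CPM per kilobase. Each gene there differed from the next by more than the sum of both SDs. In pIC of STZ mice this did not hold for Rorb at 4.55 ± 0.697 and Cux1 at 4.39 ± 0.293. In PVT of control mice the first 4 genes held the same order, with Slc17a7 at 60.9 ± 45.5, Neurod6 at 17.9 ± 12.1, Tbr1 at 6.84 ± 4.12 and Fezf2 at 4.27 ± 3.19 CPM per kilobase. Cux1 at 3.57 ± 0.142, Rorb at 2.92 ± 0.568, Cux2 at 2.81 ± 0.297 and Foxp2 at 1.49 ± 0.366 followed, and of the neighbours in this order Cux2 and Foxp2 alone differed by more than the sum of both SDs. All levels below are CPM, which compare a gene between libraries and not one gene with another.

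**Figure D1:**
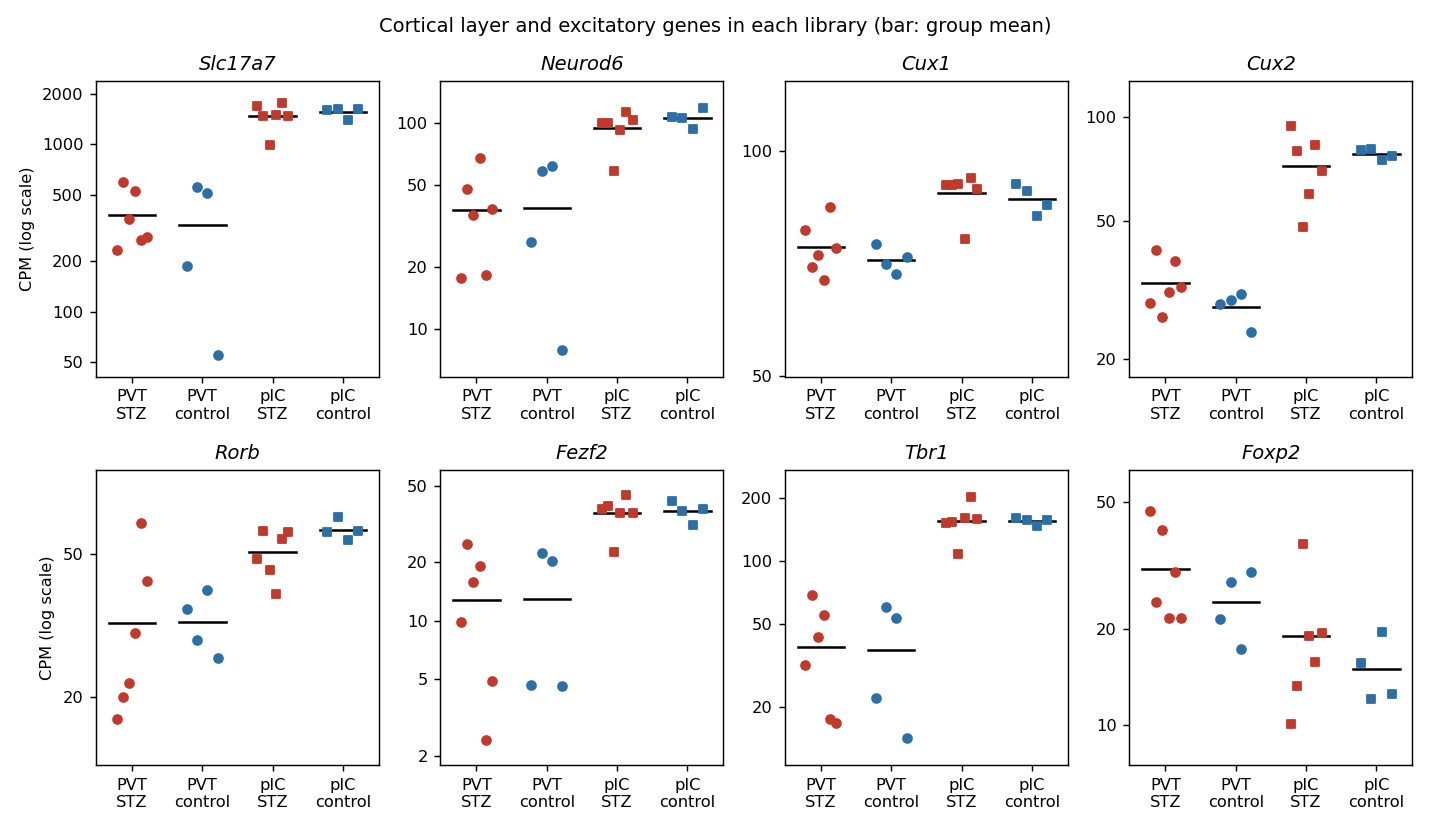
Level of each of the 8 genes in CPM (log axis) in every library, with STZ mice in red, control mice in blue, PVT as circles and pIC as squares, and the group mean as a bar. Slc17a7, Cux2 and Tbr1 are lower in every PVT library than in any pIC library, Foxp2 has its highest values in PVT, and STZ and control libraries of the same region overlap for every gene.

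The first comparison asked whether the genes differed between STZ and control mice within PVT. None of the 8 was called, that is, had an adjusted p under 0.05. Across all genes, 2.07% of 17076 were called (353 genes, 81 or 0.474% higher and 272 or 1.59% lower, and 58 higher and 416 lower with upper quartile scaling). STZ and control libraries overlapped for all 8 genes. The median log2 fold change of the 8 was 0.05, against 0.004 over all genes tested.

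The 2 general genes of cortical excitatory neurons spread widely among PVT libraries of both kinds. Slc17a7 was at 233, 318.5 and 593 CPM in PVT of STZ mice (lowest, median and highest of 6), against 188, 559, 511 and 55.5 CPM in PVT of control mice. STZ replicates 2 and 4 and control replicates 2 and 3 were the high libraries, and control replicate 4 was below all others. The log2 fold change was 0.20 (SE 0.55, edgeR adjusted p = 0.887, 95% interval −1.03 to 1.42), and without control replicate 4 it was −0.16. Neurod6 was at 17.7, 36.9 and 68.1 CPM in PVT of STZ mice, against 26.4, 58.3, 61.7 and 7.86 CPM in PVT of control mice, with the same 4 libraries highest. Its log2 fold change was −0.03 (SE 0.549, edgeR adjusted p = 0.983, 95% interval −1.26 to 1.19).

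Of the upper-layer genes, Cux1 and Cux2 varied least in PVT. Cux1 (ENSMUSG00000029705, chromosome 5), a homeodomain factor of upper-layer neurons that many other cell types also make, was at 67.3, 73.4 and 84.1 CPM in PVT of STZ mice, against 75.2, 70.5, 68.5 and 72.1 CPM in PVT of control mice. The control libraries fell inside the range of the STZ libraries, and the interval of the log2 fold change was the narrowest of the 8, −0.09 to 0.20 around 0.05 (edgeR adjusted p = 0.724). Cux2 was at 26.5, 31.9 and 41.2 CPM in PVT of STZ mice, against 28.8, 29.6, 30.9 and 24 CPM in PVT of control mice. STZ replicates 2, 4, 5 and 6 lay above every control library, and STZ replicate 3 was below 3 of the 4 control libraries. Its log2 fold change of 0.23 had the lowest adjusted p of the 8 in PVT (SE 0.126, edgeR adjusted p = 0.384, 95% interval −0.05 to 0.50).

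Rorb (ENSMUSG00000036192, chromosome 19), an orphan nuclear receptor of layer 4 neurons, was at 17.4, 25.9 and 60.8 CPM in PVT of STZ mice, against 35.2, 28.7, 39.6 and 25.7 CPM in PVT of control mice. STZ replicates 5 and 6 exceeded every control library, and STZ replicates 1, 2 and 3 lay below every one. The log2 fold change was −0.02 (SE 0.344, edgeR adjusted p = 0.987).

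The deep-layer genes Fezf2 and Tbr1 varied from punch to punch much as Slc17a7 did, and Foxp2 had other libraries high. Fezf2 was at 2.41, 12.8 and 24.9 CPM in PVT of STZ mice, against 4.67, 22.5, 20.3 and 4.59 CPM in PVT of control mice. STZ replicates 5 and 6 and control replicates 1 and 4 were low, and the log2 fold change was −0.02 (SE 0.672, edgeR adjusted p = 0.991) with the widest interval of the 8, −1.52 to 1.48. Tbr1 was at 16.8, 37.4 and 68.5 CPM in PVT of STZ mice, against 22.3, 60.2, 53.2 and 14.3 CPM in PVT of control mice. The same 4 libraries were low, and the log2 fold change was 0.05 (SE 0.503, edgeR adjusted p = 0.971). Foxp2 (ENSMUSG00000029563, chromosome 6), a forkhead factor of layer 6 neurons, was at 21.6, 27.3 and 46.8 CPM in PVT of STZ mice, against 21.5, 28.2, 17.3 and 30.3 CPM in PVT of control mice. STZ replicates 1 and 3 were the high libraries, at 46.8 and 40.9 CPM, and these also had the highest striatal sums in PVT, 3901 and 2882 CPM. The log2 fold change of Foxp2 was 0.34 (SE 0.259, edgeR adjusted p = 0.537), and the part of striatal content in it was not tested.

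In pIC, too, none of the 8 genes was called between STZ and control mice. Across all genes, 1.4% of 16189 were called (226 genes, 70 or 0.432% higher and 156 or 0.964% lower). STZ and control libraries overlapped for all 8 genes, and their median log2 fold change was −0.06, against −0.001 over all genes. The interval was wider than in PVT for Cux2 and Foxp2 and narrower for the other 6.

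Slc17a7 was at 986, 1478 and 1764 CPM in pIC of STZ mice, against 1599.8, 1622, 1392 and 1632 CPM in pIC of control mice. STZ replicate 3 was the lowest of the 10 pIC libraries, and the log2 fold change was −0.08 (SE 0.129, edgeR adjusted p = 0.874, 95% interval −0.36 to 0.20) with it and 0.01 without it. Neurod6 was at 58.4, 100.3 and 114 CPM in pIC of STZ mice, against 107.3, 106.5, 94.0 and 119 CPM in pIC of control mice, again with STZ replicate 3 lowest. Its log2 fold change was −0.17 (SE 0.153, edgeR adjusted p = 0.738) with that library and −0.06 without it.

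Cux1 was at 76.2, 90.1 and 92.0 CPM in pIC of STZ mice, against 90.3, 88.4, 81.8 and 84.8 CPM in pIC of control mice, and STZ replicate 4 alone lay below the control libraries. Cux2 was at 48.0, 74.8 and 94.2 CPM in pIC of STZ mice, against 80.5, 81.1, 75.0 and 77.1 CPM in pIC of control mice. STZ libraries lay on both sides of the tightly grouped control libraries, and the SD was 16.7 CPM in STZ mice and 2.86 CPM in control mice. Rorb was at 38.6, 51.7 and 57.8 CPM in pIC of STZ mice, against 57.3, 63.4, 54.6 and 57.8 CPM in pIC of control mice. STZ replicates 1, 3 and 4 lay below every control library, and the log2 fold change of −0.21 had the lowest adjusted p of the 8 in pIC (SE 0.103, edgeR adjusted p = 0.468, 95% interval −0.43 to 0.02). The log2 fold changes of Cux1 and Cux2 were 0.03 (edgeR adjusted p = 0.904) and −0.11 (adjusted p = 0.846). Without STZ replicate 3 they were 0.02 for Cux1, −0.02 for Cux2 and −0.18 for Rorb.

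Fezf2 was at 22.7, 36.9 and 44.7 CPM in pIC of STZ mice, against 41.8, 37.0, 31.3 and 37.9 CPM in pIC of control mice. Tbr1 was at 108, 156 and 201 CPM in pIC of STZ mice, against 159, 156, 147 and 157 CPM in pIC of control mice. In both genes STZ replicate 3 was the lowest pIC library and STZ replicate 5 the highest, and the log2 fold changes were −0.04 for Fezf2 and 0.00 for Tbr1 (edgeR adjusted p = 0.952 and 0.994), and 0.06 and 0.09 without STZ replicate 3. Foxp2 was at 10.1, 17.4 and 36.9 CPM in pIC of STZ mice, against 15.7, 12.1, 19.6 and 12.5 CPM in pIC of control mice. Here STZ replicate 3 was the highest library, and the log2 fold change was 0.35 (SE 0.35, edgeR adjusted p = 0.768) with it and 0.05 without it.

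The proportions among the genes were similar in both kinds of mice in pIC. For each 100 counts of Slc17a7 there were 10.5 ± 0.84 of Tbr1 in pIC of STZ mice and 9.93 ± 0.436 in pIC of control mice (SD, n = 6 and 4). The ratio for Fezf2 was 2.44 ± 0.157 in STZ and 2.37 ± 0.165 in control mice, for Cux2 4.90 ± 0.555 and 5.04 ± 0.273, and for Neurod6 6.41 ± 0.468 and 6.83 ± 0.322. Each pair differed by less than 1 SD of the STZ group, while Tbr1 and Neurod6 differed by more than 1 SD of the control group. Foxp2 had 1.46 ± 1.15 for each 100 of Slc17a7 in STZ mice and 0.976 ± 0.309 in control mice, and without STZ replicate 3, at 3.74, the STZ mean was 0.999 ± 0.303. In PVT these ratios spread more: Tbr1 had 10 ± 3.06 in STZ mice and 14.7 ± 7.39 in control mice, and Foxp2 9.78 ± 5.98 and 18.6 ± 24.2. The PVT control means rest on replicate 4, the library with the least Slc17a7, and without it they were 11 ± 0.757 for Tbr1 and 6.63 ± 4.25 for Foxp2 (n = 3), so that the direction turned for Foxp2.

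Whether the STZ effect differed between PVT and pIC was tested as an interaction over all 20 libraries. None of the 8 genes was called, and 0% of 17427 genes were (0 genes with edgeR and with limma-voom, 4 with DESeq2, and 701 at an unadjusted edgeR p under 0.05). The difference was largest for Cux2, at 0.33 on the log2 scale (SE 0.211, 95% interval −0.12 to 0.77), and Slc17a7 followed at 0.26 (SE 0.604). The other 6 lay between −0.02 and 0.18, and the edgeR adjusted p was 1.0 for all 8.

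**Figure D2:**
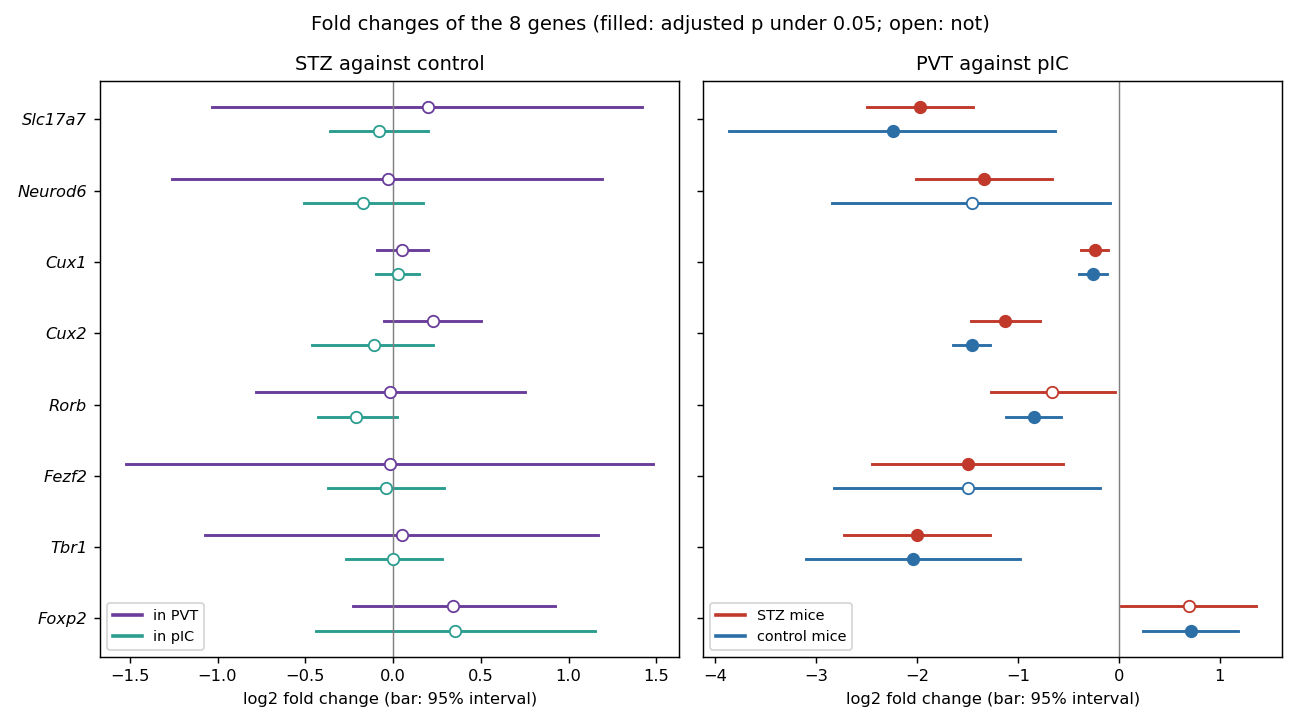
Log2 fold change of each gene with its 95% interval, for STZ against control mice on the left (PVT purple, pIC green) and for PVT against pIC on the right (STZ mice red, control mice blue), with filled points for an adjusted p under 0.05. On the left every point is open and the PVT intervals are widest for Fezf2, Slc17a7, Neurod6 and Tbr1, and on the right 7 genes lie below 0 in both kinds of mice and Foxp2 lies above.

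The second question was how the levels differ between PVT and pIC. The tests in STZ and in control mice use separate libraries, but each shares libraries with the tests of STZ above. In STZ mice 6 of the 8 genes were called, all lower in PVT, against 49.1% of 16489 genes called in all (26% higher and 23.1% lower in PVT). In control mice 6 of the 8 were called, 5 lower and 1 higher in PVT, against 47.8% of 16614 called in all (25.5% higher and 22.4% lower, or 4231 and 3717 genes, and 5047 and 2966 with upper quartile scaling). The median log2 fold change of the 8 was −1.23 in STZ mice and −1.46 in control mice, against 0.023 and 0.025 over all genes. PVT and pIC libraries did not overlap for Slc17a7, Cux2 and Tbr1 in STZ mice and for all but Foxp2 in control mice. The share of all genes without overlap was not counted, so this describes the values and sets the 8 apart from no other genes. Markers of other cells also differed between the regions, some in the opposite direction. Of the microglia list 2 of 8 genes were called in STZ and 1 of 8 in control mice, and of the endothelial list 0 of 8 and 2 of 8. All genes of the oligodendrocyte list (10), the ependymal list (8) and the choroid plexus list (9) were higher in PVT in each kind of mouse. Of the hippocampal and dentate list, 8 of 9 tested genes were called higher in PVT of STZ mice and 0 lower. In control mice 7 of 10 were called higher and 0 lower. The part of these lists in the results was not tested. Of markers of all neurons, 8 of 10 were lower in PVT in each kind of mouse, and Rbfox3, a nuclear protein of neurons, was lower with a log2 fold change of −1.01 in STZ mice and −1.21 in control mice (edgeR adjusted p = 1.01e-05 and 0.00032).

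Slc17a7 and Tbr1 had the largest log2 fold changes of the 8 in both kinds of mice. For Slc17a7, the 6 PVT libraries of STZ mice (233 to 593 CPM) all lay below the 6 pIC libraries (986 to 1764 CPM), a log2 fold change of −1.97 (SE 0.242, edgeR adjusted p = 4.43e-05). In control mice PVT had 55.5 to 559 CPM and pIC 1392 to 1632 CPM, with a log2 fold change of −2.24 (SE 0.677, edgeR adjusted p = 0.0314). That call was lost at adjusted p = 0.0748 without PVT replicate 1, and at 0.0598, 0.0512 and 0.0631 without pIC replicates 1, 2 and 4. It was also lost with no filter on low counts (0.0638) and with the label shared by both regions as a replicate block (0.0571). Neurod6 was lower in PVT of STZ mice with a log2 fold change of −1.34 (SE 0.31, edgeR adjusted p = 0.00357). In control mice its value was −1.46 (SE 0.576, adjusted p = 0.0756), and −1.13 with an adjusted p of 0.0216 without PVT replicate 4, the library with 7.86 CPM.

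Among upper-layer genes, Cux2 was lower in PVT in both kinds of mice. It was at 26.5 to 41.2 CPM in PVT and 48.0 to 94.2 CPM in pIC of STZ mice, a log2 fold change of −1.13 (SE 0.159, edgeR adjusted p = 0.000105). In control mice it was at 24 to 30.9 CPM in PVT and 75.0 to 81.1 CPM in pIC, with −1.46 (SE 0.0819, adjusted p = 8.14e-07), and in these it alone of the 8 passed a test against a minimum fold of 2. Cux1 differed least: its log2 fold change was −0.24 in STZ mice (SE 0.0625, edgeR adjusted p = 0.00576) and −0.26 in control mice (SE 0.0625, adjusted p = 0.00542). PVT therefore held 0.845 of the pIC level of Cux1 in STZ mice and 0.834 in control mice.

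Rorb was lower in PVT of control mice, at 25.7 to 39.6 CPM against 54.6 to 63.4 CPM in pIC, with a log2 fold change of −0.84 (SE 0.124, edgeR adjusted p = 0.000332). In STZ mice the PVT range of 17.4 to 60.8 CPM enclosed the pIC range of 38.6 to 57.8 CPM, and the log2 fold change of −0.66 was not called (SE 0.284, adjusted p = 0.0742). Without PVT STZ replicate 5, the library with 60.8 CPM, it was −0.95 with an adjusted p of 0.00377, and with the label shared by both regions as a replicate block it was −0.78 with an adjusted p of 0.0327.

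Tbr1 was lower in PVT in both kinds of mice. It was at 16.8 to 68.5 CPM in PVT and 108 to 201 CPM in pIC of STZ mice (log2 fold change −2.0, SE 0.33, edgeR adjusted p = 0.000381), and at 14.3 to 60.2 CPM in PVT and 147 to 159 CPM in pIC of control mice (−2.04, SE 0.449, adjusted p = 0.00854). With Slc17a7 it passed the test against a minimum fold of 2 in STZ mice (glmTreat adjusted p = 0.0315 for Tbr1 and 0.00564 for Slc17a7). Fezf2 had a log2 fold change of −1.50 in each, called in STZ mice (SE 0.436, edgeR adjusted p = 0.0132) and not in control mice (SE 0.553, adjusted p = 0.0605). Without PVT control replicate 2 or 3, the high libraries, its value in control mice was −1.92 or −1.82, with adjusted p of 0.0417 and 0.0474.

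Foxp2 alone was higher in PVT. In control mice it was at 17.3 to 30.3 CPM in PVT and 12.1 to 19.6 CPM in pIC, a log2 fold change of 0.71 (SE 0.208, edgeR adjusted p = 0.0198), and the groups overlapped. The adjusted p was between 0.0538 and 0.0577 without PVT control replicate 2 or 4 or pIC control replicate 2 or 4, 0.09 with the replicate block, 0.0948 with all 20 libraries in 1 fit and 0.0711 with no filter. In STZ mice the log2 fold change was 0.69 (SE 0.307, adjusted p = 0.0797), and 0.99 with an adjusted p of 0.00636 without pIC STZ replicate 3. Of the striatal list, 2 of 14 genes were called higher in PVT in each kind of mouse, and 13 of 14 had a log2 fold change above 0. Its median was 0.52 in STZ and 0.64 in control mice. Of the thalamic list, 13 of 15 were called higher in STZ and 9 of 15 in control mice. Over all genes, 26% were called higher in STZ and 25.5% in control mice.

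Other genes of cortical neurons were taken from lists chosen with earlier results known. Of 20 further genes of cortical projection neurons, 18 were lower in PVT of STZ mice and 16 in PVT of control mice, with none higher, or 90% and 80% of the list against 49.1% and 47.8% of all genes called in either direction. Among them, Camk2a, a synaptic kinase of excitatory neurons, had log2 fold changes of −1.06 in STZ mice and −1.35 in control mice (edgeR adjusted p = 0.000118 and 0.00136), and Chn1, a Rac GTPase-activating protein, −1.01 and −1.23 (adjusted p = 0.000137 and 0.00128). The log2 fold change of Sv2b, a synaptic vesicle protein, was −1.64 in STZ mice, and that of Bhlhe40, a transcription factor, was −1.53 in control mice. The list's median was −1.20 in STZ and −1.58 in control mice.

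Most called genes of each layer list were lower in PVT. The share called in either direction was 57.9% in STZ and 68.4% in control mice for layers 2 to 4. It was 42.1% and 47.4% for layers 5 and 6, and 40% and 70% for layer 6b and claustrum. The share over all genes was 49.1% in STZ and 47.8% in control mice. Counted in either direction, layers 5 and 6 did not exceed it in either kind of mouse, nor did layer 6b and claustrum in STZ mice. By direction, 23.1% of all genes were called lower and 26% higher in PVT of STZ mice. In control mice 22.4% were called lower and 25.5% higher. Of 19 further genes of layers 2 to 4, 8 were lower and 3 higher in PVT of STZ mice, and 9 were lower and 4 higher in PVT of control mice. Plxnd1, a semaphorin receptor, had log2 fold changes of −1.44 in STZ and −1.73 in control mice (edgeR adjusted p = 7.5e-05 and 9.86e-05). Scnn1a, an epithelial sodium channel subunit used as a layer 4 marker, was higher in PVT of control mice by 1.19 (SE 0.145, adjusted p = 9.67e-05). Of 19 tested genes of layers 5 and 6, 7 were lower and 1 higher in STZ mice, and 8 were lower and 1 higher in control mice. Sox5, a factor of deep-layer neurons, had −1.02 in STZ and −0.96 in control mice (edgeR adjusted p = 9.5e-06 and 0.000388), and Rprm, a gene of layer 6, −0.77 and −0.84. Of 10 genes of layer 6b and claustrum, 4 were lower and 0 higher in STZ mice, and 5 were lower and 2 higher in control mice, with Ntng2, an axon guidance protein, at −1.60 and −1.76 (adjusted p = 4.71e-07 and 1.03e-05) and Nr4a2, a nuclear receptor of claustrum and layer 6b, at −1.23 and −1.44.

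Between STZ and control mice these 4 lists held 2 called genes of 68 tested in PVT (2.94%, near the 2.07% over all genes) and none of 68 in pIC. In PVT of STZ mice Scnn1a fell by 0.63 on the log2 scale (SE 0.135, edgeR adjusted p = 0.0402), and Moxd1, a monooxygenase-like gene of the layer 6b list, fell by 0.60 (SE 0.132, adjusted p = 0.0442). In the same comparison 7 of 8 ependymal genes were lower in STZ mice, and their summed level was 66.0 to 91.0 CPM in STZ and 106.1 to 148.0 CPM in control mice, and the part of ependymal content in these calls was not tested. In pIC the lowest adjusted p of the lists was that of Baiap2, a scaffold protein of excitatory synapses, at 0.20 (SE 0.0628, edgeR adjusted p = 0.173).

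The last question was whether the 8 genes vary together between punches of the same region. All 28 pairs were compared in each region over its 10 libraries on log2 CPM, with permutation p-values adjusted over the 56 pairs. In PVT, 7 pairs passed with Pearson's r and 3 with Spearman's coefficient. They included all 6 pairs among Slc17a7, Neurod6, Tbr1 and Fezf2. For Tbr1 with Fezf2, r was 0.955 (permutation p = 0.0001, adjusted p = 0.0056) and Spearman's coefficient 0.927 (permutation p = 0.00034, adjusted p = 0.019), with r 0.985 after leaving out the 2 libraries farthest from the median of Tbr1. For Slc17a7 with Neurod6, r was 0.924 (permutation p = 0.00028, adjusted p = 0.00714) and Spearman's coefficient 0.842 (permutation p = 0.00416, adjusted p = 0.0582), with r 0.865 without the 2 farthest. Slc17a7 with Tbr1 had r 0.833 (permutation p = 0.00051, adjusted p = 0.00714) and Spearman's coefficient 0.891 (permutation p = 0.00108, adjusted p = 0.0209), with r 0.833 without the 2 farthest. The other 3 pairs among the 4 genes had r between 0.709 and 0.792.

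Of the 4 pairs of Cux1 with these genes in PVT, 1 passed, with Fezf2 at r −0.78 (permutation p = 0.00591, adjusted p = 0.0266), Spearman's coefficient −0.733 (permutation p = 0.0202, adjusted p = 0.0785) and r −0.785 without the 2 farthest libraries. With Slc17a7, Neurod6 and Tbr1, r was −0.367, −0.604 and −0.644 (permutation p = 0.288, 0.0645 and 0.0402, adjusted p = 0.425, 0.157 and 0.107). Cux2, Rorb and Foxp2 passed with none of the others in PVT. Values centred on the means of STZ and control mice also gave 7 passing pairs. Leaving out 1 library gave 3 to 8 passing pairs, with 3 without STZ replicate 4, control replicate 2 or control replicate 3 (3 of the 4 libraries with the highest Slc17a7) and 4 without STZ replicate 3 or control replicate 1.

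In pIC 12 pairs passed with Pearson's r, 9 positive and 3 negative, and 0 passed with Spearman's coefficient. The 6 pairs among Slc17a7, Neurod6, Tbr1 and Fezf2 were again among them, with r from 0.87 to 0.945. Cux2 joined with Slc17a7, Fezf2 and Neurod6, and Foxp2 was negative with Slc17a7, Cux2 and Neurod6, for instance r −0.91 with Cux2 (permutation p = 0.00048, adjusted p = 0.00714), Spearman's coefficient −0.782 (permutation p = 0.00982, adjusted p = 0.0785) and r −0.788 without the 2 farthest libraries. Whether these pairs passed rested on 1 library: without STZ replicate 3, 0 of the 28 pairs passed, and without STZ replicate 5, 7 did. Slc17a7 with Tbr1 had r 0.893 over 10 libraries (permutation p = 0.0029, adjusted p = 0.0184), Spearman's coefficient 0.515 (permutation p = 0.133, adjusted p = 0.276), and r 0.282 without these 2. Without the same 2 libraries, Slc17a7 had r 0.613 with Cux2, 0.614 with Fezf2, 0.617 with Neurod6 and −0.83 with Foxp2.

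**Figure D3:**
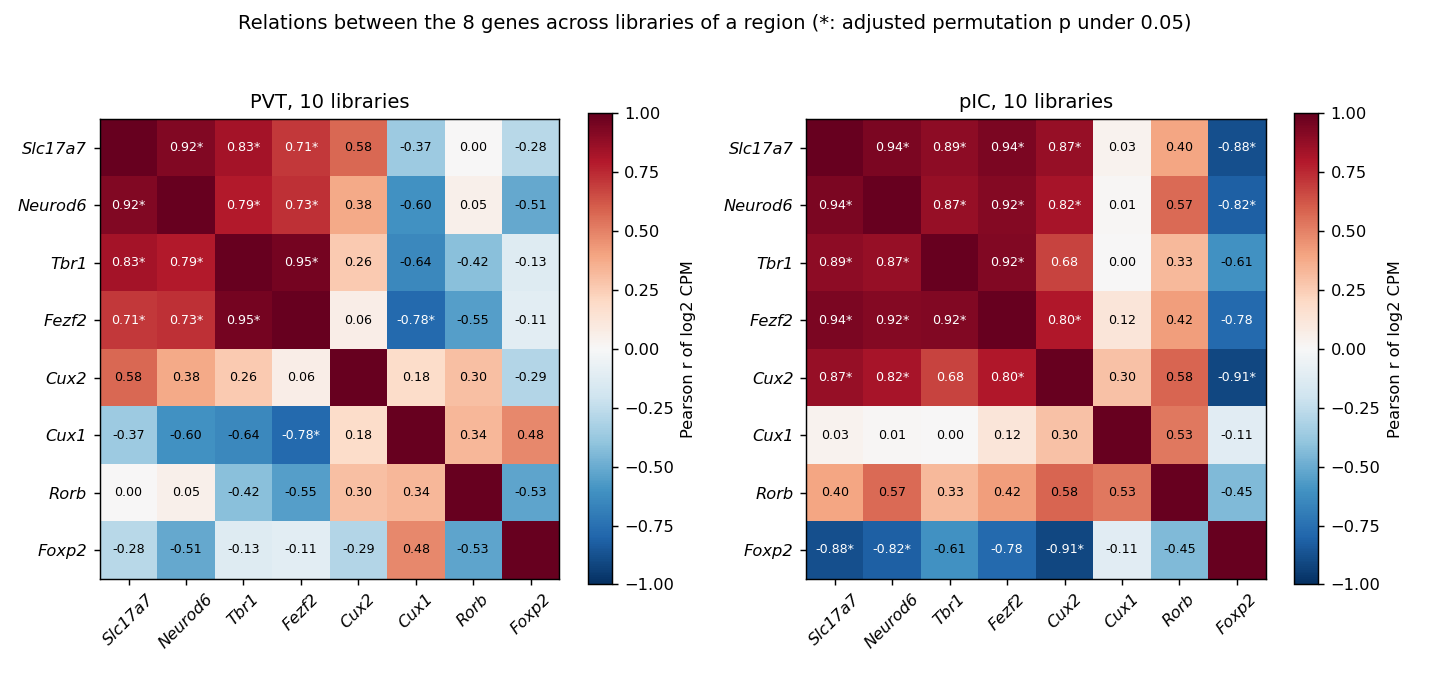
Pearson r of log2 CPM for each pair of the 8 genes over the 10 libraries of PVT (left) and of pIC (right), red for positive and blue for negative, with an asterisk where the adjusted permutation p is under 0.05. Slc17a7, Neurod6, Tbr1 and Fezf2 form a block of high positive values in both regions, Rorb has no asterisk in either, and Foxp2 is negative with Slc17a7, Neurod6 and Cux2 in pIC.

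Summed marker genes of thalamic and of striatal neurons were set beside each gene in the same libraries, 32 relations in all. In PVT, Rorb followed the sum of 15 thalamic genes, with r 0.932 (permutation p = 7e-05, adjusted p = 0.00224), Spearman's coefficient 0.903 (permutation p = 0.00089, adjusted p = 0.0241) and r 0.848 without the 2 farthest libraries. The thalamic sum ranged from 638 to 2517 CPM in STZ and from 656 to 1276 CPM in control mice, and its 2 highest libraries, STZ replicates 5 and 6, had the highest Rorb. No gene of the thalamic list was at 0 in any group. Rorb ran against the striatal sum in PVT (r −0.893, permutation p = 0.00067, adjusted p = 0.00429, Spearman's coefficient −0.879, permutation p = 0.00177, adjusted p = 0.0241, and r −0.757 without the 2 farthest). For Foxp2 and the striatal sum in PVT, r was 0.723 (permutation p = 0.0182, adjusted p = 0.0728) and Spearman's coefficient 0.721 (permutation p = 0.0231, adjusted p = 0.0821). There r was 0.951 without the 2 farthest libraries, STZ replicates 1 and 5. For Foxp2 and the thalamic sum in PVT, r was −0.457 (permutation p = 0.18, adjusted p = 0.277), and −0.807 without STZ replicates 5 and 6, the 2 farthest. Foxp2, Slc17a7, Neurod6, Tbr1, Fezf2, Cux1 and Cux2 passed with neither sum in PVT.

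In pIC, libraries with a higher striatal sum had less of several cortical genes and more Foxp2. Pearson's r with it was −0.907 for Slc17a7 (permutation p = 0.00093, adjusted p = 0.00496, Spearman's coefficient −0.758, permutation p = 0.0152, adjusted p = 0.0697) and −0.699 without the 2 farthest libraries, STZ replicate 3 and control replicate 3. For Cux2 it was −0.908 (permutation p = 0.00057, adjusted p = 0.00429, Spearman's coefficient −0.855, permutation p = 0.00313, adjusted p = 0.025), and −0.874 without these 2. For Fezf2 it was −0.901 (permutation p = 0.0004, adjusted p = 0.00429, Spearman's coefficient −0.867, permutation p = 0.00226, adjusted p = 0.0241), and −0.622 without them. For Foxp2 it was 0.909 (permutation p = 0.00063, adjusted p = 0.00429, Spearman's coefficient 0.733, permutation p = 0.0207, adjusted p = 0.0821), and 0.719 without them. Neurod6 had r −0.831 (permutation p = 0.00701, adjusted p = 0.032, Spearman's coefficient −0.576, permutation p = 0.0887, adjusted p = 0.203) and −0.385 without them. Cux1, Rorb and Tbr1 did not pass. With the thalamic sum in pIC no r passed, while Spearman's coefficient was −0.806 for Slc17a7 and for Neurod6 (permutation p = 0.00658 and 0.00722, adjusted p = 0.0385 for both). What tissue the punches held was not tested apart from these sums.

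**Figure D4:**
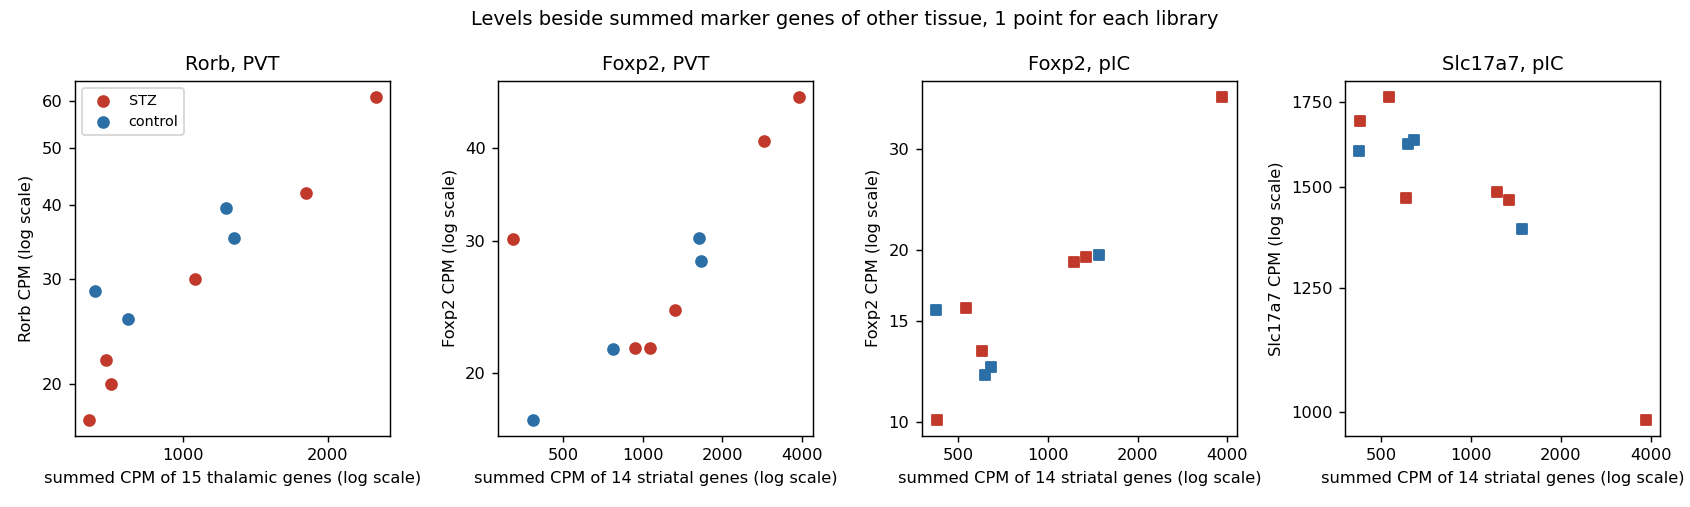
Level of Rorb or Foxp2 in PVT and of Foxp2 or Slc17a7 in pIC (CPM, log axis) against the summed CPM of thalamic or striatal marker genes (log axis), 1 point for each library, STZ red and control blue. Rorb climbs with the thalamic sum across PVT libraries, and the pIC library with a striatal sum of 3850 CPM has the highest Foxp2, 36.9 CPM, and the lowest Slc17a7, 986 CPM.

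The genes most like the 8 as a set were those with the highest mean r with all 8 over the 10 libraries of a region, given as a description since all share the same libraries. In PVT these were Cdr1 (mean r 0.435), Mapk10 (0.433), Bsn (0.432), Rims1 (0.432) and Pcnx2 (0.431), among 15080 genes compared. Bsn and Rims1 encode scaffolds of the presynaptic active zone, and Mapk10 a neuronal kinase of the JNK family. In pIC they were Gtdc1 (0.586), Mal2 (0.586), Klc2 (0.585), Ephx4 (0.582) and Epop (0.579), among 14536 genes. No gene followed all 8 closely, as the 8 did not follow each other. Taken one at a time, and named after their values were seen, Slc17a7 in PVT was most like Slc30a3, the zinc transporter of cortical synaptic vesicles, and Rims1 (r 0.989 each), and Foxp2 in pIC had among its nearest Syt6, a synaptotagmin (r 0.969).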

How the data were processed

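The deposited table holds the authors' raw counts: 57180 Ensembl identifiers by 20 library columns, with 0 columns of other samples. Libraries were poly(A)-selected and stranded, per the labels' protocols, and reads were placed on GRCm39 (mm39), per the submitters' processing notes. The aligner, the counter and its strand setting were not given in the sources used here. Symbols were matched for 51884 identifiers, 206 of 207 list genes among them, and merged exon lengths came from GENCODE annotation of an older build (GRCm38), so levels per kilobase are approximate. Promoter sequences are RefSeq's.

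Tests used edgeR 4.0.16 in R 4.3.3 on the counts, scaled by TMM and filtered by filterByExpr at a count of 10 and a total of 15, then robust quasi-likelihood fits and Benjamini-Hochberg adjustment over all genes tested, with calls under 0.05. STZ and control were compared within a region, PVT and pIC within a treatment, and the interaction over all 20 libraries. Each SE belongs to its log2 fold change, and intervals are 95%. CPM used TMM scaling over all libraries, and log2 CPM a prior count of 2. Relations were tested two-sided by permutation (100000 resamples, smallest possible p 1e-05). The methods were tested on simulated data. No 2 libraries of a group were duplicates (lowest chi-square per degree of freedom 3.79).

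The 8 members and the other lists were chosen with earlier results of these data known. Named besides the members are up to 4 called genes of smallest p in each list (1 or 2 where none was called), the 5 genes most like the members and a few defining markers, and the text gives those that bear on a result. Relations with marker sums and leaving out libraries in the relations and ratios were added after the data were seen. Alternatives were upper quartile and RLE scaling, limma-voom with quality weights (limma 3.58.1), DESeq2 1.42.0, no filter, a minimum fold of 2 (glmTreat), replicate blocks, all libraries in 1 fit and each library left out. No library was left out of the main tests.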

Additional observations from a re-analysis of the deposited data

Results flagged for a closer look

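Levels of the 8 genes were examined in the 4 groups, 32 sets of values, for a library far from the others of its group, which chance alone gives in about 1 in 20 sets. In 3 sets such a library was found. Slc17a7 in pIC of control mice was at 1391.9 CPM in replicate 3, the lowest, against 1599.8 CPM in the nearest of the other 3, a gap of 0.866 of the group's range. Foxp2 in pIC of STZ mice was at 36.9 CPM in replicate 3, the highest, against 19.4 CPM in the nearest (gap 0.652 of the range). These 2 libraries also had the highest striatal sum of their group, 1482 CPM in control replicate 3 and 3850 CPM in STZ replicate 3, and the part of striatal content was not tested. Cux1 in pIC of STZ mice was at 76.2 CPM in replicate 4, the lowest, against 89.0 CPM in the nearest (gap 0.808 of the range).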

How the results depend on the processing

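Between STZ and control mice, and in the interaction, 0 of the 8 genes were called under every alternative run. Between regions, the directions of all 8 genes held under every alternative, and 6 called genes in control mice were 1 (Cux2) against a minimum fold of 2 and 4 to 7 with a library left out. In STZ mice 6 were 2 (Slc17a7 and Tbr1) against that fold and 6 or 7 with a library left out. Both DESeq2 and limma-voom called all 8 in each kind of mouse. Over all genes, the 353 called between STZ and control in PVT were 904 with DESeq2, 679 with all 20 libraries in 1 fit and 143 to 343 with a library left out (143 to 211 without PVT STZ replicate 1, 3 or 4 or PVT control replicate 1, 3 or 4). The 226 in pIC were 468 with DESeq2, 367 with limma-voom and 128 to 272 with a library left out (128 to 139 without pIC control replicate 1, 2 or 4). Against the minimum fold, the 7948 genes called between regions in control mice were 873 and the 8089 in STZ mice 594. The interaction had 4 genes with DESeq2, 1 with no filter and 0 to 3 with a library left out (3 without PVT control replicate 2 and 1 without pIC STZ replicate 1). Passing relations with a library left out numbered 3 to 8 in PVT and 0 to 12 in pIC.

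Uncalled log2 fold changes near 0 changed sign, and the cause was not tested. For STZ in PVT, Cux1 was −0.0022 with upper quartile scaling, and with limma-voom Fezf2 was 0.16 and Neurod6 0.19. For STZ in pIC, Tbr1 was −0.01 with upper quartile scaling and −0.0032 with limma-voom. In the interaction, upper quartile scaling gave Cux1 −0.01 and Fezf2 −0.01, and limma-voom gave Cux1 −0.02, Rorb −0.15 and Foxp2 0.20. With a library left out, values for STZ in PVT ran from −0.16 to 0.58 for Slc17a7, −0.30 to 0.11 for Rorb, −0.22 to 0.37 for Tbr1, −0.32 to 0.37 for Fezf2 and −0.38 to 0.29 for Neurod6. In pIC they ran from −0.14 to 0.01 for Slc17a7, −0.08 to 0.09 for Tbr1 and −0.11 to 0.06 for Fezf2. In the interaction they ran from −0.09 to 0.65 for Slc17a7, −0.02 to 0.05 for Cux1, −0.10 to 0.32 for Rorb, −0.25 to 0.37 for Tbr1, −0.30 to 0.41 for Fezf2, −0.17 to 0.29 for Foxp2 and −0.22 to 0.44 for Neurod6.

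Deviations from the group means correlated at −0.30 to 0.536 over 8 pairs of STZ and control libraries of equal number (3 above 0.1). Over 10 pairs of PVT and pIC libraries of the same label, they correlated at −0.118 to 0.273 (5 above 0.1). Pairs of unequal number were not compared, so these values cannot tell whether equal numbers pair the libraries. With the number as a replicate block, the genes called for STZ were 72 in PVT and 240 in pIC, and members called between regions were 7 in STZ and 4 in control mice. Fezf2 was then 0.68 and Neurod6 0.21 in PVT, Tbr1 −0.13 in pIC and Foxp2 0.02 in the interaction. The wide PVT intervals limit what these libraries can show.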
